A study of Macaca mulatta with 24 samples.

Results

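The genes described here are 10 genes of cholinergic transmission in the cerebral cortex of rhesus monkeys: the nicotinic receptor subunits CHRNA2, CHRNA4, CHRNA5, CHRNA7 and CHRNB2, the muscarinic receptors CHRM1, CHRM2, CHRM3 and CHRM4, and acetylcholinesterase, ACHE. They were taken by name, and every probe that the annotation of the Illumina HumanHT-12 V4.0 beadchip lists for them was followed. The annotation used here lists 16 probes for 8 of the 10 genes. A probe was kept when its detection p-value, the chance of such a signal among the array's negative control probes, was under 0.01 on at least 4 of the 24 arrays. This left 7 probes of 5 genes, among 15531 kept probes of the 47323 on the array.

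Each array measured RNA of temporal neocortex from 1 male monkey after 24 months on a diet. The study describes the monkeys as 7 to 13 years old and gives no age at tissue collection. The 10 HFS+R monkeys ate the high-fat, high-sugar diet, with 42% of its energy as fat and 27% sucrose by weight, and were given resveratrol (RSV), a plant polyphenol, in 2 treats a day of 40 mg each in the first year and 240 mg each in the second. The 10 HFS monkeys ate the same diet with placebo treats. The 4 SD monkeys ate a standard diet with 13% of its energy as fat and less than 5% sucrose, and also received placebo treats, so HFS+R and HFS share the diet while SD differs from both in diet. The array was designed on human sequences, and how well each probe matches its monkey transcript was not examined.

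Acetylcholine reaches the cortex mainly from neurons of the basal forebrain. It acts on nicotinic receptors, which are ion channels built from 5 subunits, and on muscarinic receptors, which signal through G proteins, and ACHE in the synaptic cleft ends the signal by hydrolysing it. CHRNA5 is an accessory subunit that joins alpha4 and beta2 subunits in nicotinic receptors, and in rodents the receptors that hold it excite layer 6 neurons of the prefrontal cortex. CHRM1 and CHRM3 couple to Gq proteins and release calcium from stores, whereas CHRM2 and CHRM4 couple to Gi proteins and lower cyclic AMP.

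Levels are given as log2 signal after Z normalization of each array, and a difference is the first group minus the second. A call is an adjusted p under 0.05 in limma over all 15531 kept probes. Between 11413 and 14890 probes were detected per array, from 12459 to 14528 in HFS+R, from 12473 to 14890 in HFS and from 11413 to 14642 in SD. On the second principal component SD replicates 1 and 2 lay apart from the other 22 arrays, at 20.39 and 14.51 against at most 7.965. The neuron markers were called in no comparison (0 of 7 genes), and none of 6 markers of cholinergic neurons had a kept probe. Of 9 striatal markers, 7 had a listed probe, and of these DRD1, DRD2, RGS9 and PDE10A were not detected on any array. PPP1R1B and TAC1 were detected on all 24 arrays and ADORA2A on 6 of 10 HFS+R, 8 of 10 HFS and 3 of 4 SD arrays, and none of these 3 was called. TBR1, of 6 kept genes of the excitatory layers, was 0.50 higher in HFS+R than in SD (limma adjusted p = 0.00357). Of 6 kept astrocyte markers, GJA1 was 0.56 higher in HFS+R than in HFS (adjusted p = 0.00227), whereas the difference of ALDH1L1 was -0.32 in HFS+R against HFS (adjusted p = 0.0331) and -0.57 in HFS+R against SD (adjusted p = 0.00827). The mean level of the oligodendrocyte markers, in SD units of each gene, overlapped between all groups and was -0.305, 0.348 and 1.55 at its lowest, median and highest in HFS+R, -1.73, -0.438 and 0.658 in HFS, and -0.354, -0.186 and 0.246 in SD. Of their 9 kept genes, 3 rose in HFS+R against HFS (MOG, UGT8 and ERMN), 0 were called in HFS against SD and 1 rose in HFS+R against SD (MOG), where 14.4%, 0.0% and 6.75% of all kept probes were called. ERMN was near background, detected on 5 of 10 HFS+R, 1 of 10 HFS and 3 of 4 SD arrays. Its difference in HFS+R against SD was -0.02. The part of these markers in the differences below was not tested, except for the oligodendrocyte level, which 1 fit holds as a covariate.

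Only CHRNA5 passed the test among the 7 kept probes, and it was lower in HFS+R than in HFS and lower in HFS+R than in SD. The count was 1 of 7 in HFS+R against HFS, where 14.4% of all kept probes were called, 0 of 7 in HFS against SD, where 0.0% were called, and 1 of 7 in HFS+R against SD, where 6.75% were called. One ACHE probe was above background on no HFS+R array and is left out of the counts of direction that involve HFS+R. The other 6 probes split into 1 higher and 5 lower in HFS+R against HFS, with a median difference of -0.10 beside 0.02 over all kept probes. In HFS against SD, 4 of 7 were higher and 3 lower, with a median of 0.02 beside -0.02 over all, and in HFS+R against SD, 2 of 6 were higher and 4 lower, with a median of -0.08 beside 0.02. At an unadjusted p under 0.05 in limma, 2 of 6, 1 of 7 and 2 of 6 passed in these comparisons, where 30.2%, 12.7% and 20.8% of all kept probes did. The 3 comparisons share groups, so their values are not independent of each other.

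**Figure D1:**
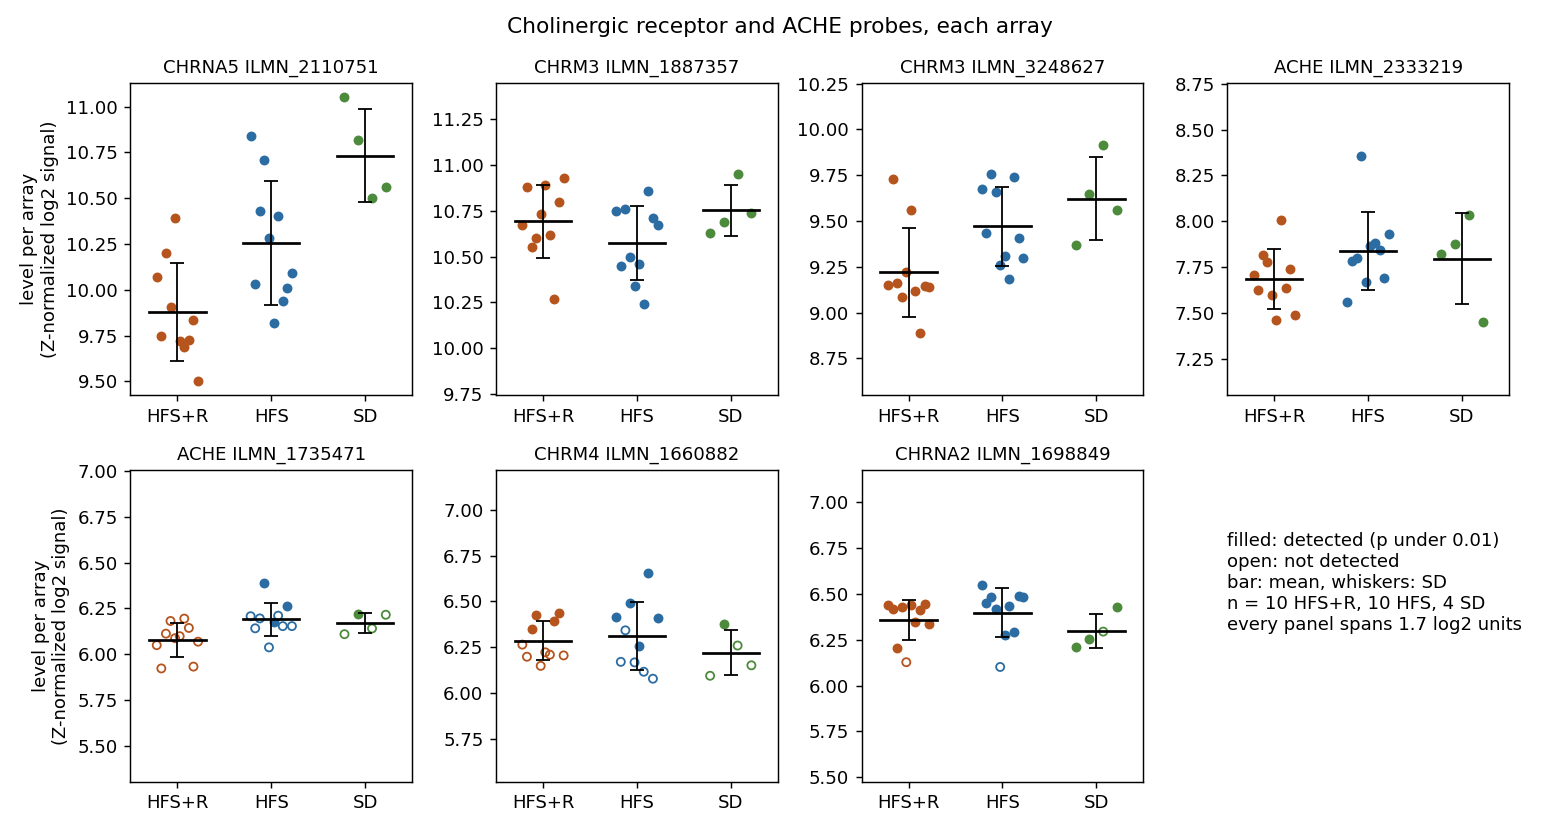
Level of each of the 7 kept probes on every array (vertical axis, Z-normalized log2 signal) in HFS+R, HFS and SD, with the mean (bar) and SD (whiskers), open points for arrays on which the probe was not detected, and the same span on every axis. CHRNA5 stands at 9.502 to 10.39 in HFS+R, 9.818 to 10.84 in HFS and 10.50 to 11.05 in SD, while the groups of the other probes overlap.

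The CHRNA5 probe was detected on all 24 arrays, with signals of 681.6 to 1606.8 in HFS+R, 844.8 to 1566.5 in HFS and 1293.7 to 2948.5 in SD before normalization. Its levels ran from 9.502 through a median of 9.792 to 10.39 in HFS+R. In HFS they ran from 9.818 through 10.18 to 10.84. The 4 SD arrays read 11.05, 10.82, 10.50 and 10.56. No HFS+R array reached the lowest SD array, whereas HFS+R and HFS overlapped, with 5 HFS+R arrays below the lowest HFS array. The group means were 9.88 ± 0.27 in HFS+R, 10.25 ± 0.34 in HFS and 10.73 ± 0.25 in SD (SD, n = 10, 10 and 4). In bulk tissue, fewer cells that express a gene and less RNA per cell cannot be told apart.

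CHRNA5 fell by 0.38 in HFS+R against HFS on the log2 scale (SE 0.124, 95% interval -0.632 to -0.12, limma adjusted p = 0.0427), which is 22.9% lower, and 9 of 10 HFS+R arrays were below the HFS mean. This call lay close to the threshold. It held in 7 of the 14 other settings tried and in 12 of the 24 fits that left out 1 array, with adjusted p-values of 0.0177 to 0.431 and 0.0227 to 0.0864 in limma. The call was lost under quantile normalization, neqc and median scaling, the only other normalizations tried. It was also lost with the SD of log2 signal of each array as covariate (limma adjusted p = 0.0735). The deposited Z scores repeat the main fit, and leaving out an SD array leaves this difference unchanged, so these fits say little about the call. The arrays whose removal ended the call were HFS+R replicates 2, 4, 6, 7, 8, 9 and 10 and HFS replicates 1, 3, 4, 5 and 7. The difference was negative in all of them, between -0.44 and -0.19 over the settings and between -0.43 and -0.31 without 1 array. With the oligodendrocyte marker level as a covariate it was -0.32 and was not called, while in HFS+R against SD CHRNA5 was at -0.81 with this covariate and remained called.

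**Figure D2:**
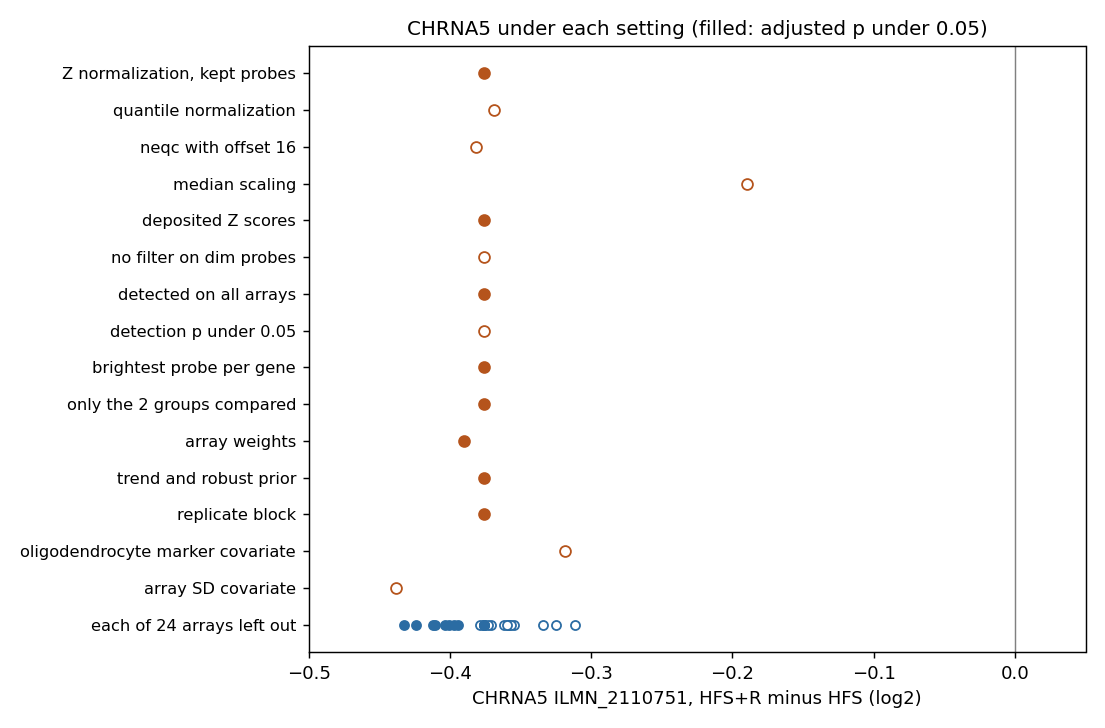
Difference of CHRNA5 between HFS+R and HFS (horizontal axis, log2) under the main processing and the 14 other settings, with the 24 fits that each left out 1 array in the bottom row, filled where the adjusted p was under 0.05. All points lie below 0, the smallest being -0.19 under median scaling, and 7 of the 14 other settings are filled. Among the filled is the setting with the deposited Z scores, which repeats the main fit.

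CHRNA5 fell by 0.85 in HFS+R against SD (SE 0.165, 95% interval -1.19 to -0.516, limma adjusted p = 0.002), or 44.7% lower, in 10 of 10 HFS+R arrays relative to the SD mean. Ranges that do not overlap were found for 4.08% of all kept probes in this comparison. Without SD replicates 1 and 2, the 2 highest SD values of CHRNA5, the difference was -0.65 and the adjusted p 0.0872, within a range of 0.000652 to 0.219 over the 15 other settings, 13 of which kept the call. In HFS against SD the difference was -0.48 (SE 0.165, 95% interval -0.817 to -0.14), 28.2% lower in HFS, and was not past the test (limma p = 0.00741, adjusted p = 0.26). It passed in 0 of 15 other settings, and over all kept probes limma called none here either, though 1968 had an unadjusted p under 0.05. The study's methods give thresholds on Z ratio, P value and false discovery rate but name no test for the arrays. They were applied here to a recomputed Z ratio and to the p and adjusted p of limma. Under these thresholds CHRNA5 was called in each comparison, with Z ratios of -3.35 for HFS+R against HFS, -4.30 for HFS against SD and -6.37 for HFS+R against SD. In these comparisons the thresholds called 25.4%, 5.62% and 17.8% of all kept probes.

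The other CHRNA5 probe on the array, ILMN_1770044, was not detected on any array, so the CHRNA5 result rests on 1 probe, ILMN_2110751. In the RefSeq gene table of the macaque, CHRNA3 and CHRNB4 are the next genes after CHRNA5 on the same chromosome, and they were looked at for that position after their values were seen. CHRNA3, the subunit of autonomic ganglia, was detected on 4 of 10 HFS+R, 6 of 10 HFS and 1 of 4 SD arrays, and averaged 6.28 ± 0.16 in HFS+R, 6.27 ± 0.11 in HFS and 6.20 ± 0.17 in SD. It was called in no comparison, with a difference of 0.00 in HFS+R against HFS (95% interval -0.135 to 0.138, limma adjusted p = 0.992). CHRNB4 was detected on 2, 1 and 1 arrays of HFS+R, HFS and SD and differed by 0.08 in HFS+R against HFS (95% interval -0.031 to 0.188, limma adjusted p = 0.337). Both signals are near background, where a difference in RNA is understated.

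CHRNA2, another nicotinic alpha subunit, was detected on 9 of 10 HFS+R, 9 of 10 HFS and 3 of 4 SD arrays at signals just above background (68.4 to 92.1). Its levels were 6.128, 6.414 and 6.444 (lowest, median, highest) in HFS+R and 6.102, 6.441 and 6.55 in HFS, against 6.213, 6.253, 6.295 and 6.432 on the SD arrays. HFS+R and HFS overlapped almost entirely, while 6 of 10 HFS arrays and 3 of 10 HFS+R arrays lay above the highest SD array. The differences were -0.04 (95% interval -0.157 to 0.0812) in HFS+R against HFS, 0.10 in HFS against SD and 0.06 in HFS+R against SD, with limma adjusted p-values of 0.703, 0.601 and 0.699. The remaining nicotinic members gave no level: the 1 probe of CHRNB2, the main beta subunit of brain receptors, was not detected on any array, and no probe of CHRNA4 or CHRNA7 is listed in the annotation used here.

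Among the muscarinic receptors CHRM3, which drives calcium release in neurons, was measured by 2 kept probes, and these did not move alike. ILMN_3248627, listed with the RefSeq transcript, read 8.888, 9.148 and 9.73 (lowest, median, highest) in HFS+R and 9.182, 9.421 and 9.755 in HFS, against 9.37, 9.64, 9.91 and 9.56 on the SD arrays. Of the HFS+R arrays, 8 lay at or below 9.221 and 2, replicates 2 and 6, read 9.73 and 9.558. The difference was -0.25 in HFS+R against HFS (SE 0.0981, limma p = 0.0163, adjusted p = 0.0817) and -0.40 in HFS+R against SD (SE 0.13, p = 0.00468, adjusted p = 0.0614), and neither was called. In HFS against SD it was -0.15 (adjusted p = 0.653). Without HFS+R replicate 2 the adjusted p was 0.0238 against HFS and 0.0181 against SD, and without HFS+R replicate 6 it was 0.0491 and 0.0388. Without SD replicate 1 it was 0.0441 in HFS+R against SD. Leaving out any 1 array gave 0.0238 to 0.15 against HFS and 0.0181 to 0.247 against SD. Only 2 of these 24 fits called it against HFS and only 3 of 24 against SD. The thresholds of the study's methods called this probe in HFS+R against HFS and in HFS+R against SD, which makes 2, 1 and 2 of the 7 member probes called in the 3 comparisons under them.

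The other CHRM3 probe, ILMN_1887357, is listed with a cDNA clone. It read 10.27, 10.70 and 10.93 in HFS+R and 10.24, 10.58 and 10.86 in HFS, against 10.63, 10.69, 10.95 and 10.74 on the SD arrays, and the groups overlapped. Its differences were 0.12 in HFS+R against HFS (SE 0.0842, limma adjusted p = 0.348), -0.18 in HFS against SD (adjusted p = 0.514) and -0.06 in HFS+R against SD (adjusted p = 0.826). Under median scaling, which shifts the median of all kept probes to 0.10 in HFS+R against HFS, the difference was 0.32 and was called.

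The gap between the CHRM3 probes on each array was widest in HFS+R. It ran from 1.15 through a median of 1.51 to 1.79 in HFS+R, from 0.839 through 1.08 to 1.37 in HFS, and from 1.03 through 1.11 to 1.26 in SD. The shift of ILMN_1887357 less that of ILMN_3248627 was 0.37 in HFS+R against HFS (two-sided permutation test, 100000 resamples, p = 0.00012, adjusted over the 6 tests run on the CHRM3 and ACHE probe pairs 0.00072) and 0.35 in HFS+R against SD (exact permutation p = 0.00599, adjusted 0.018). In HFS against SD it was -0.03 (exact permutation p = 0.769). Leaving out 1 array at a time kept it between 0.339 and 0.409 against HFS and between 0.312 and 0.391 against SD. This comparison of probes was chosen after their values were seen.

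**Figure D3:**
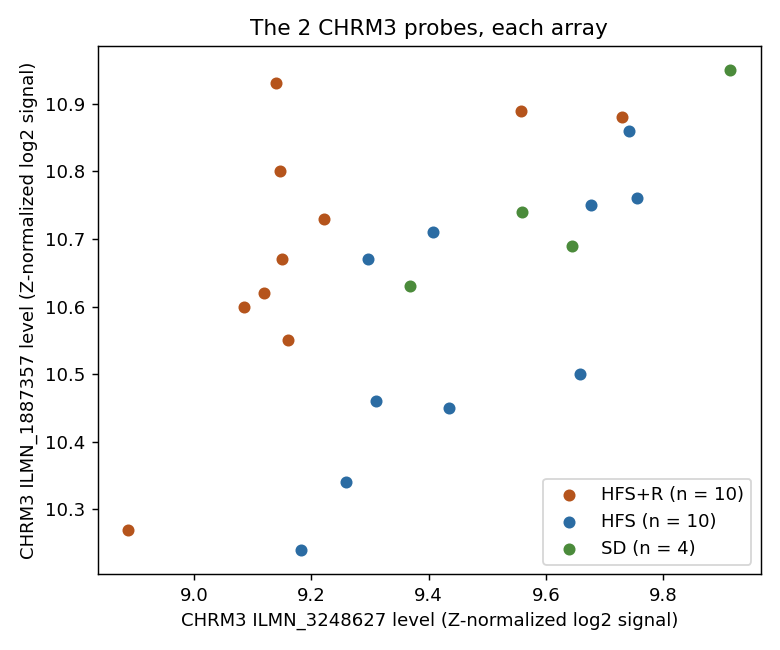
Level of the 2 CHRM3 probes on each array (horizontal axis ILMN_3248627, vertical axis ILMN_1887357, both Z-normalized log2 signal), colored by group. At a given level of ILMN_3248627 most HFS+R arrays lie above the HFS and SD arrays, as the median gap of 1.51 in HFS+R, against 1.08 in HFS and 1.11 in SD, describes.

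CHRM4, the Gi-coupled receptor abundant in striatum, was near background in this cortex: its probe was detected on 4 of 10 HFS+R, 5 of 10 HFS and 1 of 4 SD arrays. Levels were 6.148, 6.243 and 6.434 (lowest, median, highest) in HFS+R and 6.078, 6.30 and 6.654 in HFS, against 6.094, 6.375, 6.259 and 6.151 on the SD arrays. HFS spread widest, on both sides of the HFS+R arrays. Differences were -0.02 in HFS+R against HFS (0.0016 under median scaling, where its sign turned), 0.09 in HFS against SD and 0.07 in HFS+R against SD, with limma adjusted p-values of 0.849, 0.703 and 0.73. CHRM1, the main muscarinic receptor of cortical pyramidal neurons, had 1 probe, not detected on any array, and none of the 3 CHRM2 probes was kept.

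ACHE was measured by 2 kept probes listed with different RefSeq transcripts. ILMN_2333219 was detected on every array. It read 7.462, 7.672 and 8.008 (lowest, median, highest) in HFS+R and 7.56, 7.822 and 8.356 in HFS, against 7.82, 7.88, 8.03 and 7.45 on the SD arrays. The groups overlapped, and HFS replicate 4 stood above the other HFS arrays. The mean was 7.69 ± 0.16 in HFS+R, 7.84 ± 0.21 in HFS and 7.79 ± 0.25 in SD (SD). Differences were -0.15 in HFS+R against HFS (SE 0.0866, limma adjusted p = 0.24), 0.04 in HFS against SD (adjusted p = 0.906) and -0.11 in HFS+R against SD (adjusted p = 0.638). The sign in HFS against SD turned under median scaling, to -0.09, and without HFS replicate 4 or SD replicate 4.

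The other kept ACHE probe, ILMN_1735471, was not above background on any HFS+R array and was detected on 3 of 10 HFS arrays and 1 of 4 SD arrays. Its levels were 5.922, 6.093 and 6.194 in HFS+R and 6.037, 6.185 and 6.386 in HFS, against 6.109, 6.218, 6.14 and 6.215 on the SD arrays. No fold is given for HFS+R, since the floor of detection there, 6.28, lies above the means of 6.19 in HFS and 6.17 in SD. The limma adjusted p was 0.916 in HFS against SD. This probe passed the filter only through HFS and SD arrays, so its comparisons with HFS+R, which were not called, are not read as a test.

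**Figure D4:**
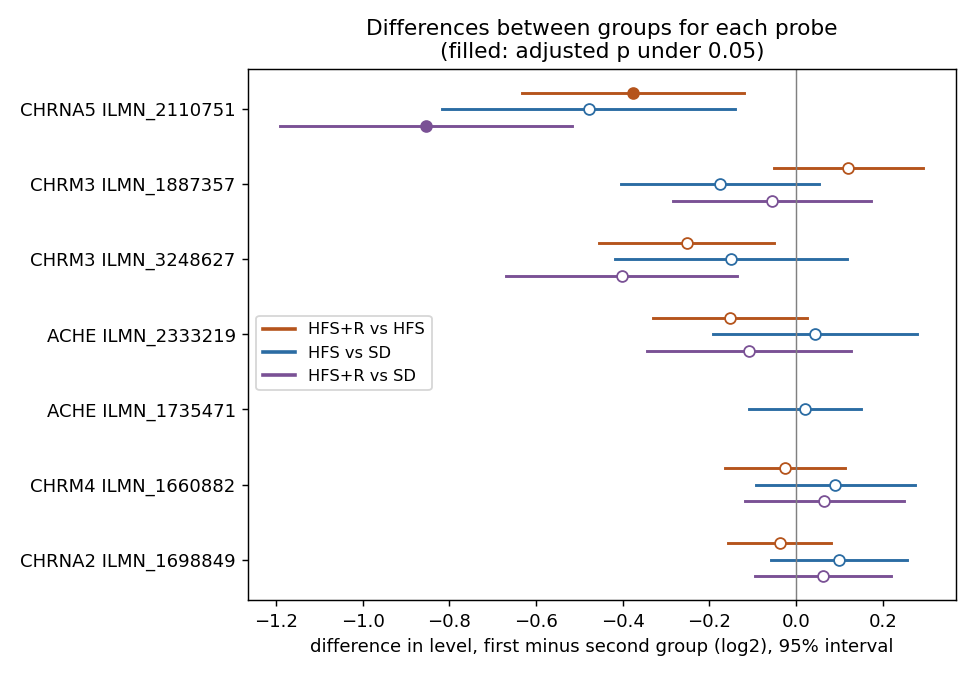
Difference in level of each kept probe between groups (horizontal axis, log2, first minus second group), with 95% intervals from limma, filled where the adjusted p was under 0.05. CHRNA5 is filled for HFS+R against HFS at -0.38 and for HFS+R against SD at -0.85, and the comparisons of ACHE ILMN_1735471 with HFS+R are left out because no HFS+R array detected it.

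The filter decided what could be described. Of the 7 kept probes, 4 were detected on all 24 arrays, ACHE ILMN_1735471 lay just inside the threshold with 4 arrays, and CHRM4 and CHRNA2 were detected on 10 and 21. Of the 9 probes left out, all were detected on 0 arrays at a detection p under 0.01, with signals of 36.4 to 70.6. Nearest to the threshold was CHRM2 ILMN_2358718, whose lowest detection p was 0.0221 and which 3 arrays detected at a detection p under 0.05.

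Across the 24 arrays, after each group's mean was taken off, the gene most like CHRNA5 of 9883 others was TDP1, a DNA repair phosphodiesterase (r = 0.894). For CHRM3 ILMN_1887357 it was LDB2 (r = 0.805), for CHRNA2 PITPNM2 (r = 0.79), for ACHE ILMN_2333219 VPS8 (r = 0.787) and for CHRM4 NRROS (r = 0.768). These are the highest of many correlations over arrays that share the same normalization, and are given as a description.

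The genes that make and supply acetylcholine gave no call. The 4 probes of CHAT, which makes acetylcholine, and those of its vesicular transporter SLC18A3 and of the choline transporter SLC5A7 were not detected on any array. The 6 kept genes of 9 in the list of synthesis, storage and choline supply, which serve lipid metabolism as well, had 0 calls in each comparison, with a median difference of -0.01 in HFS+R against HFS. Of the 13 other receptor genes, CHRNA1, CHRNA3, CHRNB4 and CHRNE were kept, and 0 were called. BCHE, butyrylcholinesterase, which also hydrolyses acetylcholine, was detected on 5 of 10 HFS+R, 0 of 10 HFS and 1 of 4 SD arrays, at means of 6.25, 6.05 and 6.00. It was not called in limma (adjusted p = 0.0629 in HFS+R against HFS), and no fold is given because the detection floor in HFS, 6.27, lies above the HFS+R mean. The BCHE probe passed the filter only because of HFS+R arrays, so its comparisons with HFS+R are not read as a test.

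Of 14 genes listed as assembly factors and Ly6 modulators of nicotinic receptors, 10 were kept. Of these, 2 rose and 1 fell in HFS+R against HFS, 0 were called in HFS against SD, and 2 rose in HFS+R against SD, beside 14.4%, 0.0% and 6.75% of all kept probes called in these comparisons. Their median difference in HFS+R against HFS was -0.01, beside 0.02 over all kept probes. TMEM35A, a neuronal chaperone of nicotinic receptors, read 8.958, 9.39 and 9.567 (lowest, median, highest) in HFS+R, 8.754, 8.932 and 9.267 in HFS and 8.377, 8.779 and 9.089 in SD. Of 10 HFS+R arrays, 8 were above the highest HFS array. TMEM35A rose by 0.40 in HFS+R against HFS (SE 0.0857, limma adjusted p = 0.00465) and by 0.59 in HFS+R against SD (SE 0.113, adjusted p = 0.00189), and held the first call in 9 of 9 settings tried for these genes. The second was lost under median scaling and with a block for replicate number.

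RIC3, another chaperone of nicotinic receptors, was 0.35 higher in HFS+R than in HFS (SE 0.11, limma adjusted p = 0.0353), while its difference in HFS+R against SD was -0.04 (adjusted p = 0.908). Its call was kept in 14 of 24 fits without 1 array (adjusted p up to 0.0716). It was lost with the level of oligodendrocyte markers or the SD of log2 signal of each array as covariate. The RIC3 call was also lost with a block for replicate number. LY6E, of the Ly6 family of membrane-anchored proteins, averaged 10.96 ± 0.23 in HFS+R, 11.32 ± 0.14 in HFS and 11.21 ± 0.32 in SD, and fell by 0.37 in HFS+R against HFS (SE 0.0905, adjusted p = 0.0101). This call was lost under median scaling and with the SD of each array as covariate. VSNL1, a calcium sensor that raises surface levels of alpha4 beta2 receptors, was 0.38 higher in HFS+R than in SD by its brighter probe (limma adjusted p = 0.0485), a call kept in 5 of 24 fits without 1 array and in 4 of 9 settings. It was lost, among others, under median scaling, with only the compared groups in the fit, with a trended robust prior and with the oligodendrocyte covariate. Its dimmer probe gave -0.07 there. The brighter VSNL1 probe was also 0.32 higher in HFS than in SD, which was not called (limma adjusted p = 0.271). In HFS+R against HFS it differed by 0.06 (adjusted p = 0.707).

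**Figure D5:**
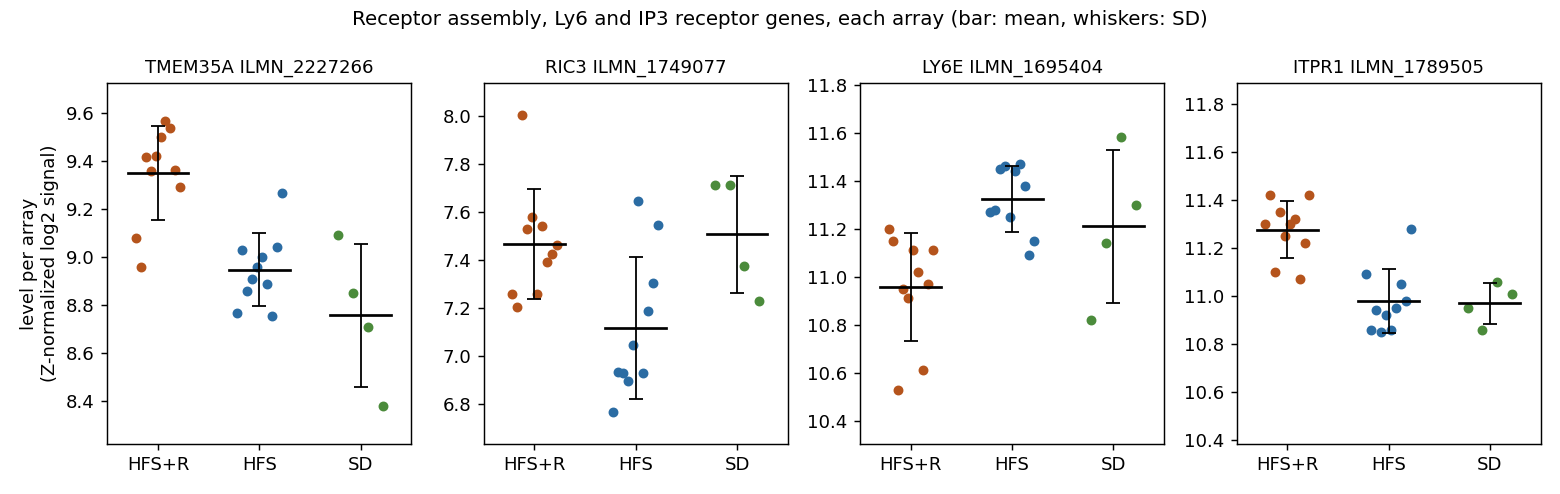
Level of TMEM35A, RIC3, LY6E and ITPR1 on each array (vertical axis, Z-normalized log2 signal) in HFS+R, HFS and SD, with the mean (bar) and SD (whiskers). TMEM35A and ITPR1 are higher in HFS+R than in both other groups, by 0.40 and 0.30 against HFS, and LY6E is 0.37 lower in HFS+R than in HFS.

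Downstream of the muscarinic receptors, 17 of 27 listed genes were kept. In HFS+R against HFS 1 rose and 4 fell, with a median difference of -0.06 over the 17 beside 0.02 over all kept probes, in HFS against SD 0 were called, and in HFS+R against SD 1 rose and 1 fell. The share of all kept probes called in these comparisons was 14.4%, 0.0% and 6.75%. ITPR1, the inositol trisphosphate receptor through which Gq signals release calcium, read 11.07, 11.30 and 11.42 in HFS+R, 10.85, 10.94 and 11.28 in HFS and 10.86, 10.98 and 11.06 in SD. No HFS+R array overlapped SD, though the nearest, at 11.07 and 11.06, almost met. Of all kept probes, 4.08% had ranges that do not overlap in this comparison. It rose by 0.30 in HFS+R against HFS (SE 0.0581, limma adjusted p = 0.00272) and by 0.31 in HFS+R against SD (SE 0.0769, adjusted p = 0.0149), and the first call held in 9 of 9 settings. The second was lost under median scaling, with a block for replicate number and without SD replicate 2 (adjusted p = 0.0777).

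The 4 genes that fell were ADCY1, a calcium-stimulated adenylyl cyclase (-0.36, SE 0.0805, limma adjusted p = 0.00588), GNA11, a Gq-class alpha subunit (-0.27, SE 0.0618, adjusted p = 0.00725), GRK5, a receptor kinase (-0.27, SE 0.0861, adjusted p = 0.0349), and GNAI2, a Gi alpha subunit (-0.23, SE 0.074, adjusted p = 0.0397). The dimmer kept ADCY1 probe, ILMN_1742073, gave -0.27 there and was not called (limma adjusted p = 0.0803). GNA11 also fell by 0.30 in HFS+R against SD (adjusted p = 0.0246), a call lost without SD replicate 2, 3 or 4 (adjusted p up to 0.0968) and with a block for replicate number. All 4 calls against HFS were lost under median scaling, and those of GNA11, GRK5 and GNAI2 also with the SD of each array as covariate. That of GNAI2 was lost as well with neqc and with only the compared groups in the fit. Without 1 array at a time, the call of GRK5 was kept in 14 and that of GNAI2 in 13 of 24 fits, with adjusted p-values up to 0.0674 and 0.0748. That SD was 1.418, 1.465 and 1.585 at its lowest, median and highest in HFS+R, 1.32, 1.425 and 1.496 in HFS, and 1.404, 1.512 and 1.568 in SD. In the main fit 62.9% of the probes called in HFS+R against HFS were higher, against 52.5% after quantile normalization, 51.9% with neqc and 94.7% under median scaling. In HFS+R against SD the share was 38% in the main fit, 44% after quantile normalization, 43.2% with neqc and 10.8% under median scaling.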

How the data were processed

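Cerebral cortex RNA of 24 monkeys (10 HFS+R, 10 HFS, 4 SD, grouped by the titles) was hybridized to HumanHT-12 V4.0 beadchips, 1 array per monkey. The authors read them with GenomeStudio 2011.1. The deposited table holds the signal intensity of each of 47323 probes, not normalized between arrays, with a detection p-value each. A second deposited table holds Z scores per array, which recomputation from the log2 signals matched to within 5e-10, and which were used as an alternative. No array depth exists beyond the number of arrays and signal over background.

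Of the probes, 30113 had 1 symbol in the platform annotation, 8 several and 17202 none listed. The 15531 probes with a detection p-value under 0.01 on 4 or more arrays stayed in. The Z scores were multiplied by 1.46019, the mean SD of log2 signal, and 6.46267 was added, so that differences read as log2. A model of the 3 groups was fitted with limma 3.58.1 (R 4.3.3), and p-values were adjusted over all kept probes by Benjamini-Hochberg. Probe shifts were compared by permutation tests (scipy 1.17.1) on arrays. The fit was tested on simulated data.

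The members, the other gene lists and the tests were chosen with earlier results of these data known. Named were every member with each kept probe, every called gene of the other cholinergic lists by its brightest kept probe, CHAT, SLC18A3, SLC5A7 and BCHE, and the gene most like each member. Exceptions are marked in the text. Settings tried were quantile normalization, neqc, median scaling, the deposited Z scores, other filters, 1 probe per gene, only the compared groups, array weights, a trended robust prior, a replicate block, an oligodendrocyte and an array SD covariate, the thresholds of the study's methods and leaving out each array. The methods print the false discovery rate limit with a larger-than sign, and it was read as an upper limit. The sources differ on the cortical area, with temporal neocortex in the methods and frontal cortex in a legend.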

Additional observations from a re-analysis of the deposited data

Results flagged for a closer look

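Among the 21 sets of values examined (7 kept probes in 3 groups), 1 array lay far from the rest of its group, where chance gives about 1 group in 20. The level of ACHE ILMN_2333219 in HFS replicate 4 was 8.356, and the next highest HFS array was at 7.929, a gap of 0.536 of the group's whole range. Without this array the difference was -0.10 in HFS+R against HFS and -0.01 in HFS against SD, and neither was called.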

How the results depend on the processing

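Of 797 recomputed differences over the 21 pairs of probe and comparison, 751 kept their direction and side of the threshold, 21 lost a call, 13 gained one and 12 reversed, none of them past the threshold either way. Many of the 797 equal the main difference by construction: those with the deposited Z scores, another filter or another prior, or without an array outside the comparison. In the main fit only CHRNA5 had calls to lose, so the 751 does not measure stability. The count of member probes called in HFS+R against HFS, 1 in the main fit, was 0 with quantile normalization, with no filter on dim probes, with a detection p under 0.05 and with the array SD covariate, 2 with array weights and with the study's thresholds, and 0 to 1 without 1 array. A count of 1 was not always CHRNA5. With neqc it was ACHE ILMN_1735471, which passed the filter only through HFS and SD arrays, so that call is not read as a result. Under median scaling it was CHRM3 ILMN_1887357, and with the oligodendrocyte covariate or without HFS+R replicate 2 or 6 CHRM3 ILMN_3248627. In HFS against SD the count was 0 but 1 with the study's thresholds, and 0 without any 1 array. In HFS+R against SD, 1 in the main fit, it was 2 when probes were detected on all arrays, with array weights, with the oligodendrocyte covariate, with the array SD covariate and with the study's thresholds, 1 to 2 without 1 array, and 0 without both SD arrays that lay apart, a setting added after seeing the data. The causes were not tested.

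The titles number the replicates without naming a pairing of monkeys. The deviations of same-numbered arrays from their group means correlated at -0.128 to 0.246 between HFS+R and HFS. Between HFS+R and SD they correlated at -0.378 to 0.0394, and such values cannot exclude a pairing. With the replicate block the count was 1 in HFS+R against HFS, 0 in HFS against SD and 0 in HFS+R against SD, where CHRNA5 was at -0.75 (limma adjusted p = 0.219, of a range of 0.000652 to 0.219 over the settings), and CHRM3 ILMN_3248627 turned to 0.00888 in HFS against SD. Of the other genes named, the block ended the call of RIC3 in HFS+R against HFS and those of TMEM35A, ITPR1, GNA11 and VSNL1 in HFS+R against SD.

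Other signs turned near 0. Under median scaling CHRM4 was at 0.0016 in HFS+R against HFS, and in HFS against SD ACHE ILMN_1735471 was at -0.0190 and ACHE ILMN_2333219 at -0.0859. In HFS+R against HFS, CHRNA2 was at 0.0172 with the oligodendrocyte covariate and at 0.0377 with the array SD covariate. Without 1 array, CHRM4 ran from -0.0507 to 0.0133 in HFS+R against HFS (above 0 without HFS replicate 8), ACHE ILMN_1735471 from -9.48e-05 to 0.0387 in HFS against SD (below 0 without HFS replicate 4), ACHE ILMN_2333219 from -0.0718 to 0.124 in HFS against SD (below 0 without HFS replicate 4 or SD replicate 4), and CHRM3 ILMN_1887357 from -0.0955 to 0.0097 in HFS+R against SD (above 0 without SD replicate 3). CHRNA2 in HFS+R against SD was at -0.0032 without both SD arrays. Median scaling moved the median of all kept probes to 0.10 in HFS+R against HFS and to -0.15 in HFS against SD. With 4 SD arrays and signals near background for CHRNA2, CHRM4, ACHE ILMN_1735471, CHRNA3, CHRNB4 and BCHE, small differences were not detectable.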

Other observations

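CHRNA1, the alpha subunit of the nicotinic receptor of muscle, varied far more between monkeys than any member, within every group. It was chosen after its values were seen. By its brighter probe, ILMN_2361768, the signal was 137.5 to 1380.4 in HFS+R, 81.5 to 1470.2 in HFS and 243.3 to 521.4 in SD, an 18.0-fold range over the 24 arrays. Its SD within groups was 1.17 on the log2 scale, rank 23 of 15531 kept probes, where the median probe had 0.173 and CHRNA5 0.298. The other probe, ILMN_1798700, spanned 76.4 to 1070.5 and followed it across the arrays (r = 0.996, a description over 24 arrays), with an SD of 1.09 and rank 31. The groups did not differ beyond this spread: the brighter probe gave 0.39 in HFS+R against HFS (SE 0.472, limma adjusted p = 0.619), -0.06 in HFS against SD (adjusted p = 0.976) and 0.33 in HFS+R against SD (adjusted p = 0.814).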
